A study of Mus musculus with 6 samples.

Results

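The genes described here make, break down, carry or sense retinoic acid, and were measured in C2C12 cells, a mouse muscle line that is grown as myoblasts and can be differentiated into myotubes. They are the aldehyde dehydrogenases Aldh1a1, Aldh1a2 and Aldh1a3, the breakdown enzyme Cyp26b1, the binding proteins Crabp1 and Crabp2, and the receptors Rara, Rarb and Rarg. They were found by symbol and make up 9 of the 24421 symbols in the count table. The list was drawn up with the differences between the groups of these libraries already in view. The members' differences are therefore given as a description, and nothing is tested with them.

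Retinoic acid is made from vitamin A: retinol is oxidised to retinal, and enzymes of the ALDH1A family oxidise retinal to retinoic acid, while CYP26 enzymes degrade it. CRABP proteins bind it in the cytoplasm, and CRABP2 carries it to nuclear receptors of the RAR family, which bind DNA as pairs with RXR receptors. In muscle cultures retinoic acid is known to influence how myoblasts differentiate. Rarb, Cyp26a1 and Dhrs3 are widely used as genes that respond to it.

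The cells received lentivirus with a short hairpin RNA against Gaa, the lysosomal enzyme that releases glucose from glycogen (shGAA, 3 libraries), or with a scrambled hairpin (shScrambled, 3 libraries). Both groups were selected with puromycin, kept in horse serum for differentiation, and carry the word Fed in their titles, which is not explained. The labels give neither the number of hairpins nor separate cultures for the libraries, so that the p-values cover variation between libraries that can be purely technical. The series is about glycophagy, the breakdown of glycogen through autophagy.

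Gaa counts were 469, 445 and 552 in shGAA and 1033, 1158 and 1119 in shScrambled, a log2 fold change of -1.25 ± 0.07 (SE; edgeR quasi-likelihood test, adjusted p = 1.09e-09), as the labels say. Libraries held between 9224038 and 10430270 counts. CPM is the count scaled to a common library total after TMM, a correction for library composition. Fold changes are shGAA over shScrambled on the log2 scale with their SE, and a gene was called at an adjusted p under 0.05. shScrambled 1 differed from shScrambled 2 and 3 by 5.87 and 5.31 times the counting noise (chi-square per degree of freedom), against 1.95 to 2.54 for the other pairs within a group. The 9 of 10 listed myotube markers that the table used here holds summed to 2171 to 2386 CPM in shGAA and 2943 to 3273 CPM in shScrambled. Of these, 8 were called lower, where 19.7% of all tested genes were. Most of the myotube sum was Des, with means of 1664 CPM in shGAA and 2047 CPM in shScrambled. Undifferentiated myoblast markers summed to 636 to 683 and 617 to 632 CPM, and the fibroblast markers, among which Thy1 was at 0, to 1094 to 1265 and 1014 to 1040 CPM. Cdh15 made up most of the myoblast sum and had no call, nor had Myod1, and Pax7 was not tested. Myf5 was called higher (log2 fold change 0.51 ± 0.10, edgeR adjusted p = 0.00130), and its groups did not overlap. Most of the fibroblast sum was Dcn, and of the 4 tested fibroblast markers Dcn and Lum were called higher, Col1a1 was called lower (log2 fold change -1.10 ± 0.10, edgeR adjusted p = 1.96e-07) and Pdgfra had no call. The highest sum in any library was 0.537 CPM for adipocyte markers (Plin1, Cidec and Lep at 0), 2.56 for leukocyte markers (Itgam and Cd3e at 0) and 5.23 for endothelial markers. It was 0.320 CPM for osteoblast markers (Ibsp at 0), 0.427 for epithelial markers (Epcam at 0) and 1.81 for glial markers (Sox10 at 0). Of the 2 tested endothelial markers, Tek was called higher (log2 fold change 1.32 ± 0.29, edgeR adjusted p = 0.00176). The other, Cdh5, was called lower (-1.35 ± 0.46, edgeR adjusted p = 0.0280), with overlapping groups. Whether the differences in myotube, myoblast and fibroblast markers take part in the values below was not tested. In bulk RNA, fewer cells of a type and less RNA per cell cannot be told apart.

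Of the 9 genes, 6 passed the filter on low counts, and Aldh1a1, Aldh1a2 and Crabp1 did not. Aldh1a3, Cyp26b1 and Rarg were called higher in shGAA, where 18.5% of the 11801 tested genes were. Crabp2 and Rara were called lower, where 19.7% of all tested genes were. The CPM of the groups did not overlap for the 3 higher genes (24.7% of tested genes did not overlap and were higher) and for the 2 lower genes (24.9%). The groups of Rarb overlapped, and it had no call. The median log2 fold change of these 6 genes was 0.32, and that of all tested genes was 0.01. Because the choice of the genes used the same contrast, nothing is read from these counts.

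**Figure D1:**
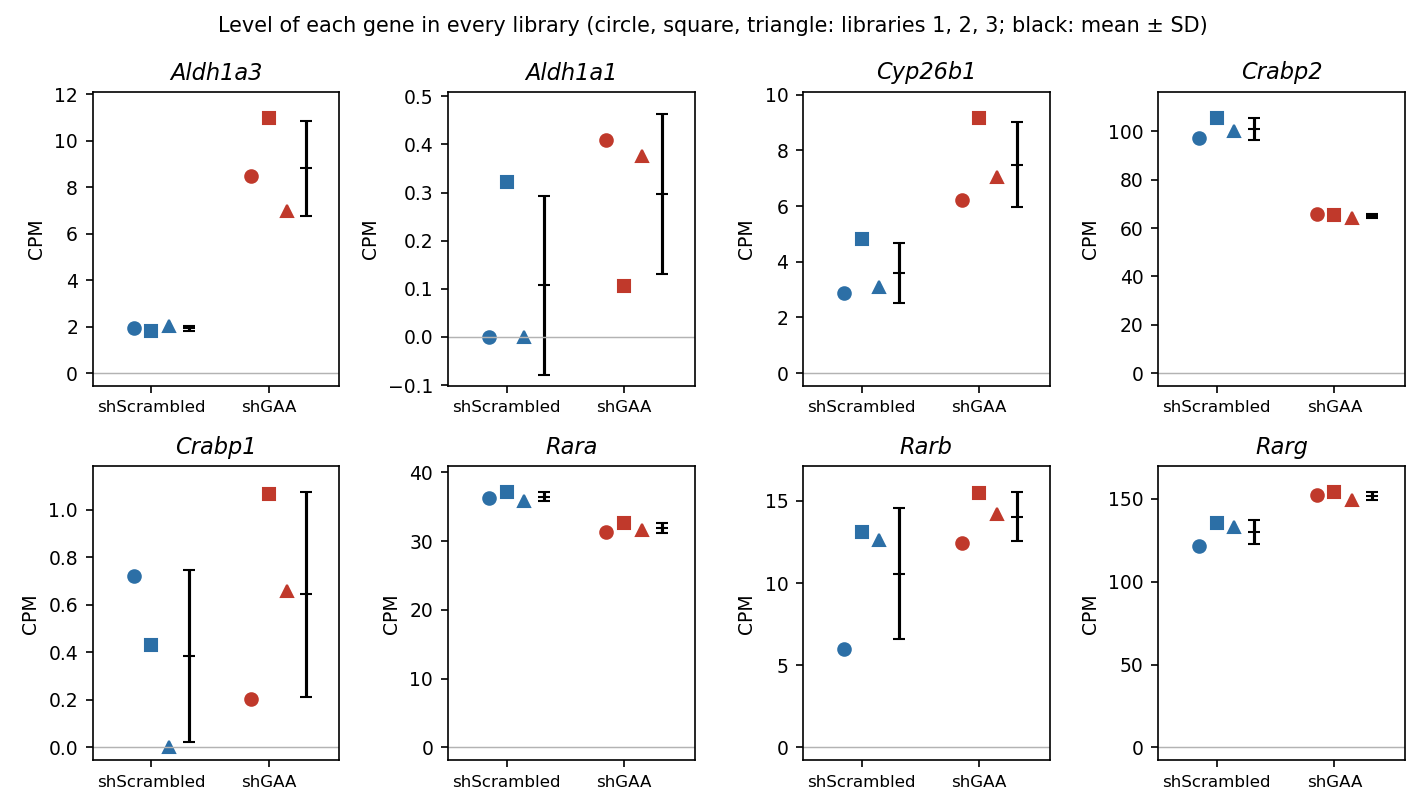
CPM of 8 of the genes in each library, by group, with mean ± SD (n = 3 libraries) in black. Aldh1a2 is not drawn because it had no counts. The groups are separate for Aldh1a3, Cyp26b1, Crabp2, Rara and Rarg, and in Rarb shScrambled 1 lies below the other libraries.

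Aldh1a3 (chr7:66390890-66427517, minus strand, GRCm38) was the ALDH1A gene with most counts and the member with the largest fold change. Its counts were 83, 103 and 74 in shGAA and 19, 17 and 19 in shScrambled. This is 8.48, 10.99 and 6.96 CPM against 1.95, 1.83 and 2.03 CPM, with means of 8.81 ± 2.04 and 1.94 ± 0.102 (SD, n = 3). Every shGAA library was above every shScrambled library, and the 3 shScrambled libraries lay close together. The log2 fold change was 2.17 ± 0.22 (4.50-fold). In the 13 alternative fits it ranged from 1.99 to 2.32.

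Aldh1a1 (chr19:20492715-20643465, plus strand), the other ALDH1A gene with any counts, was near the detection limit. It had 4, 1 and 4 counts in shGAA and 0, 3 and 0 in shScrambled, 9 against 3 in all. The ratio after library scaling was 2.96, with a 95% interval of 0.738 to 17.0 that covers counting error only. A difference between the groups was not detectable at this depth. Aldh1a2 (chr9:71215789-71296243, plus strand), the main retinoic acid-making enzyme of the early embryo, had 0 counts in all 6 libraries, and a count of 0 allows up to 3 counts per library. Of Aldh1a1's 50-base stretches, 3.06% also occur in the related gene Aldh1a7, which had 1 count in all libraries.

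Cyp26b1 (chr6:84571414-84593908, minus strand), a cytochrome P450 that oxidises retinoic acid to less active products, moved in the same direction as Aldh1a3. Its counts were 61, 86 and 75 in shGAA and 28, 45 and 29 in shScrambled. Means were 7.49 ± 1.52 and 3.60 ± 1.07 CPM (SD, n = 3), and the lowest shGAA library (6.23 CPM) was above the highest shScrambled library (4.83 CPM). The log2 fold change was 1.05 ± 0.22 (2.07-fold), with a range of 0.89 to 1.32 over the alternatives.

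Per kb of exon, the level of Aldh1a3 exceeded that of Cyp26b1 in each shGAA library and was below it in each shScrambled library. The ratio of the levels in CPM per kb was 1.64, 1.45 and 1.19 in shGAA and 0.819, 0.456 and 0.791 in shScrambled. With the length of the longest transcript in place of all exons, the ratios were 1.78, 1.56 and 1.29 against 0.886, 0.493 and 0.855, so that the side of 1 on which each library fell was the same. This ratio was computed after the values were seen.

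The other CYP26 genes had few counts. Cyp26a1 had 5, 6 and 6 counts in shGAA and 0, 1 and 3 in shScrambled. Its ratio of summed counts after scaling was 4.19 (95% interval 1.37 to 17.1, counting error only). Cyp26c1 had 6, 2 and 2 against 1, 1 and 0 counts, a ratio of 4.93 (1.05 to 46.2). Neither passed the filter, and both ratios were computed after the counts were seen. In the fit without a filter, which tests the spread between libraries, neither was called (edgeR adjusted p = 0.0566 for Cyp26a1 and 0.141 for Cyp26c1). The highest shScrambled count lay below the lowest shGAA count in both genes, by 1 or 2 counts.

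Crabp2 (chr3:87948666-87953376, plus strand), the carrier of retinoic acid to the nucleus, was lower in shGAA. It had 65.8, 65.2 and 64.3 CPM in shGAA against 97.1, 106 and 100 CPM in shScrambled, with means of 65.1 ± 0.757 and 101 ± 4.36. The shGAA libraries lay close together, and all were below the lowest shScrambled library. Its log2 fold change was -0.63 ± 0.06 (1.55-fold lower), between -0.66 and -0.59 over the alternatives. Crabp1 (chr9:54764748-54773110, plus strand), the related binding protein linked to retinoic acid breakdown, had 2, 10 and 7 counts against 7, 4 and 0. Its libraries overlapped, and the ratio of 1.70 had a 95% interval of 0.770 to 3.96 (counting error only), so that a difference was not detectable at this depth.

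Rarg (chr15:102234938-102257517, minus strand) was the receptor with the highest level. It had 152, 154 and 149 CPM in shGAA and 121, 135 and 133 CPM in shScrambled, with means of 152 ± 2.42 and 130 ± 7.33. The groups did not overlap, and shScrambled 1 was the lowest library. The log2 fold change was 0.23 ± 0.05 (1.17-fold), from 0.18 to 0.27 over the alternatives.

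Rara (chr11:98927818-98974942, plus strand) had a small difference in the opposite direction. Its levels were 31.4, 32.6 and 31.6 CPM in shGAA and 36.3, 37.2 and 35.9 CPM in shScrambled, with means of 31.9 ± 0.688 and 36.4 ± 0.661. The groups were separate, and the log2 fold change was -0.19 ± 0.07. This call was lost in 10 of the 13 alternatives, including each of the 6 fits that left out 1 library, while the fold change stayed between -0.21 and -0.15.

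Rarb (chr14:16430839-16819156, minus strand) is the receptor gene that retinoic acid itself is known to induce. It had 122, 145 and 151 counts in shGAA and 58, 122 and 118 in shScrambled, with means of 14.0 ± 1.51 and 10.6 ± 3.99 CPM. The groups overlapped: shScrambled 1 had 5.96 CPM, while shScrambled 2 and 3 had 13.1 and 12.6 CPM and shGAA 1 had 12.5 CPM. The log2 fold change was 0.42 ± 0.26 with all libraries and 0.13 without shScrambled 1. The gene's count may hold reads of a neighbour. Exons of Top2b, a DNA topoisomerase gene on the opposite strand, cover 52.9% of Rarb's exonic bases, 34.1% of Rarb's 50-base stretches also occur in Top2b or Gm48162, and whether counting used strand is not given in the sources used here. Top2b had 2068, 2000 and 2473 counts in shGAA and 1787, 1702 and 1644 in shScrambled (log2 fold change 0.28 ± 0.05, edgeR adjusted p = 0.000418). Scaled to CPM, Top2b stood at 184, 183 and 175 in shScrambled 1, 2 and 3. What share of the Rarb counts belongs to Top2b was not tested.

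The sequence before the downstream Rarb start is shown because it holds the kind of site through which RAR and RXR pairs bind DNA: 2 half-sites in the same direction with 5 bases between them (DR5). It is the 100 bases upstream of that start, chr14:16575477-16575576 on the minus strand (RefSeq, GRCm38.p6), 5′ to 3′, with the half-sites in capitals.
Rarb: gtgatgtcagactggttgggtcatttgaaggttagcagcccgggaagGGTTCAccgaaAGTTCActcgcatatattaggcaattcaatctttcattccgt
The match spans bases -53 to -37 from the start. Half-sites were searched on both strands as AGGTCA, with A or G at the first base and G or T at the third, in windows of 250 bases upstream and 50 downstream, with 12 windows for 7 of the 9 genes. Aldh1a3 and Crabp2 had no entry. Only this Rarb window among the 12 held a DR5, against 32 of all 32817 windows (0.0975%). None of the 12 held half-sites spaced by 2 bases (DR2) or by 1 base (DR1), which 0.268% and 0.222% of all windows did. When both half-sites had to be AGGTCA, no window of these genes held a DR5, against 0.00914% of all windows. A match describes letters, not binding, and counts per gene do not separate transcripts that begin at this start from others.

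Levels can be compared between genes per kb of exon. In shGAA, Crabp2 was highest at 69.9 ± 0.813 CPM per kb (SD, n = 3), followed by Rarg at 44.7 ± 0.712, Rara at 7.44 ± 0.161 and Rarb at 4.14 ± 0.445. Aldh1a3 followed at 1.99 ± 0.459, Cyp26b1 at 1.40 ± 0.284 and Crabp1 at 0.802 ± 0.538, and the libraries of neighbours in this group of 3 overlapped. Aldh1a1 was at 0.124 ± 0.0692 CPM per kb. In shScrambled the first 4 genes kept their order, at 108 ± 4.69, 38.2 ± 2.16, 8.51 ± 0.154 and 3.11 ± 1.18 CPM per kb. Below them came Cyp26b1 at 0.673 ± 0.200, Crabp1 at 0.477 ± 0.451, Aldh1a3 at 0.436 ± 0.0231 and Aldh1a1 at 0.0448 ± 0.0777. There the libraries of Crabp1 overlapped those of Cyp26b1, Aldh1a3 and Aldh1a1, while those of Aldh1a3 and Cyp26b1 did not overlap.

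Among the receptors, Rarg made up most of the summed CPM per kb in every library. Its share was 79.4 ± 0.755% in shGAA and 76.7 ± 0.911% in shScrambled (SD, n = 3), and the Rara share was 13.2 ± 0.0786% and 17.1 ± 1.13%. Rarb had 7.35 ± 0.687% and 6.15 ± 2.02%. Its shares and its levels per kb rest on counts that may hold reads of Top2b, and the other 2 shares depend on them. The shares of Rarg and Rara did not overlap between the groups, and those of Rarb did. By the longest transcript the Rarg shares were 78.7% and 75.7%.

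**Figure D2:**
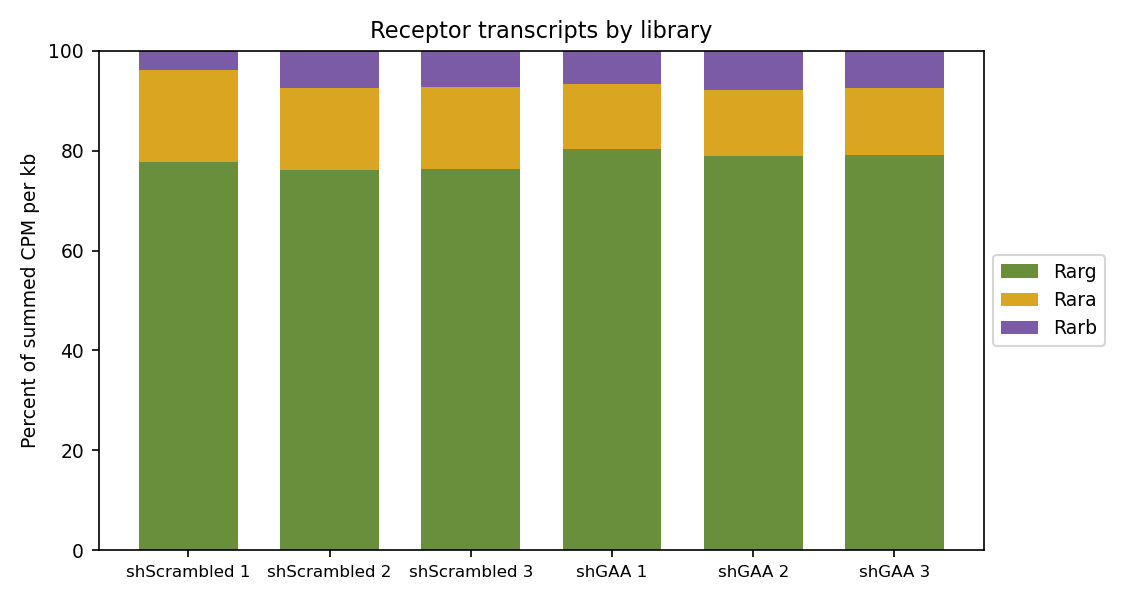
Share of Rarg, Rara and Rarb in the summed CPM per kb of the 3 receptors (vertical axis, percent), 1 bar per library. Rarg holds most of each bar, the Rara band is narrower in all shGAA libraries, and the Rarb band is narrowest in shScrambled 1.

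Of the other retinoid enzymes and carriers, 14 of 26 genes were tested, with 1 called higher, 3 lower and 10 without a call (7.14% and 21.4%, against 18.5% and 19.7% of all tested genes), and a median log2 fold change of -0.02. Rdh5, a retinol dehydrogenase, had 166, 180 and 177 counts in shGAA and 441, 440 and 458 in shScrambled. It fell by 1.42 ± 0.09 on the log2 scale (edgeR adjusted p = 2.58e-09), and its groups were far apart. Fabp5, a fatty acid-binding protein that can also carry retinoic acid, had 224, 184 and 245 against 423, 321 and 390 counts and fell by 0.87 ± 0.10 (edgeR adjusted p = 3.94e-06). Dhrs9, another enzyme that oxidises retinol, had 65, 76 and 93 against 132, 110 and 107 counts (log2 fold change -0.65 ± 0.14, edgeR adjusted p = 0.00184). Every shGAA library of these 3 genes was below every shScrambled library, which was so for 24.9% of all tested genes. The 3 genes were named because they were called with large fold changes, so that their separation adds no support. Rdh13, a retinol dehydrogenase found at mitochondria, was called higher (0.26 ± 0.09, edgeR adjusted p = 0.0305), and this call was lost without shGAA 1, without shGAA 3, without shScrambled 2 and with DESeq2.

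Some genes of this list were named whatever their values. Rdh10, the enzyme that makes most retinal in the embryo, had a log2 fold change of -0.20 ± 0.10 (edgeR adjusted p = 0.134). Stra6, a receptor for retinol-carrying protein, was at -0.32 ± 0.35 (edgeR adjusted p = 0.503). Neither passed the threshold, which does not show equal levels.

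Dhrs3, an enzyme that turns retinal back into retinol, had the same low control library as Rarb. Its counts were 133, 169 and 138 in shGAA and 48, 111 and 109 in shScrambled, so that shScrambled 1 was lowest, although all shGAA libraries were above all shScrambled libraries. The log2 fold change was 0.65 ± 0.32 (edgeR adjusted p = 0.173). Without shScrambled 1 it was 0.33 ± 0.14 (edgeR adjusted p = 0.0587), and over the alternatives the adjusted p ran from 0.00934 with no filter to 0.348. As a percent of the mean of shScrambled 2 and 3, shScrambled 1 stood at 46.4% for Rarb and 41.9% for Dhrs3. It stood at 72.6% for Cyp26b1, 101% for Aldh1a3, 99.3% for Rara, 94.4% for Crabp2 and 90.7% for Rarg. These percentages were computed after the values were seen, and their cause was not tested.

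**Figure D3:**
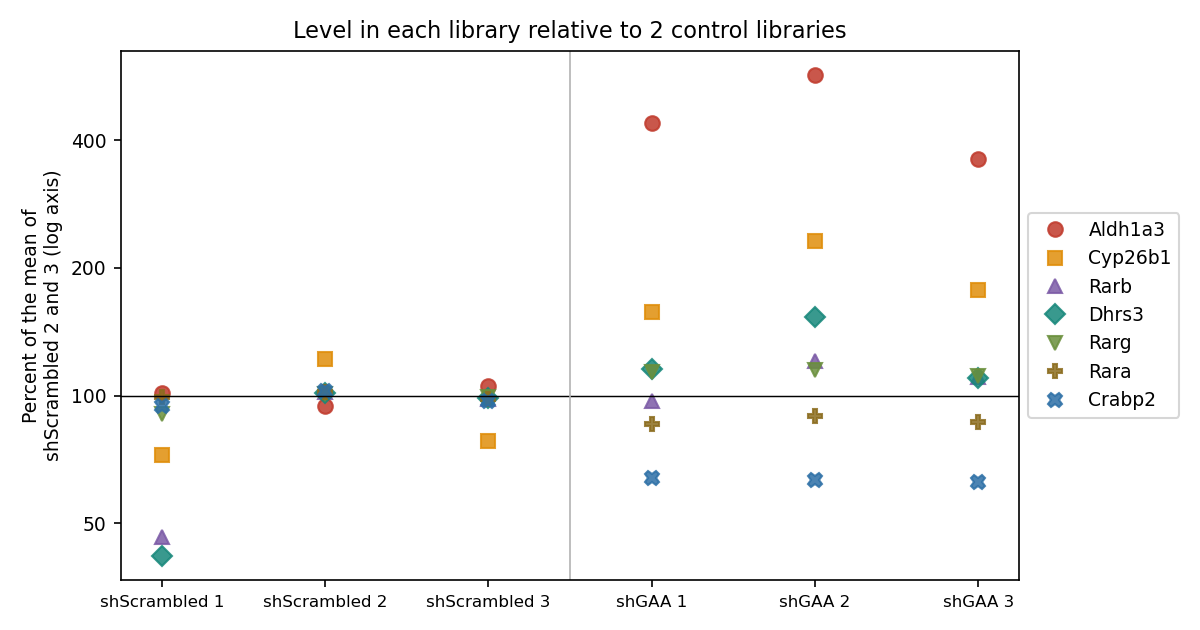
CPM of 7 genes in each library as a percent of the mean of shScrambled 2 and 3 (log axis). In shScrambled 1, Rarb and Dhrs3 stand at 46.4% and 41.9%, while Aldh1a3, Rara, Crabp2 and Rarg lie between 90.7% and 101%.

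In the RXR partners and coregulators, 14 of 15 genes were tested, with 5 called higher and 3 lower (35.7% and 21.4%, against 18.5% and 19.7% of all tested genes), and a median log2 fold change of 0.01. Rxra and Rxrb, the partners with which RARs pair, were at 0.08 ± 0.06 and 0.13 ± 0.08 and had no call (edgeR adjusted p = 0.340 and 0.229). Rxrg had 0 counts in every library. The coactivator genes Ncoa1 and Ncoa2 were called higher, at 0.42 ± 0.09 and 0.41 ± 0.07 (edgeR adjusted p = 0.00142 and 0.000116). Med1, a Mediator subunit that binds nuclear receptors, and Crebbp, a histone acetyltransferase, were called lower, at -0.36 ± 0.05 and -0.35 ± 0.08 (edgeR adjusted p = 7.62e-05 and 0.00313).

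Of 25 genes that respond to retinoic acid in other settings, 14 were tested, with 3 called higher, 3 lower and 8 without a call (21.4% each way, near the 18.5% and 19.7% of all tested genes), and a median log2 fold change of -0.07. Tgm2, a transglutaminase gene, had 676, 762 and 732 counts in shGAA and 1170, 1265 and 1283 in shScrambled (-0.84 ± 0.07, edgeR adjusted p = 2.48e-07), with all shGAA libraries lower. Zfp703, a transcriptional repressor gene, was called lower too (-0.50 ± 0.06, edgeR adjusted p = 3.51e-06). The higher genes included Nr2f1, an orphan nuclear receptor gene (0.49 ± 0.12, edgeR adjusted p = 0.00327). Ret, a receptor tyrosine kinase gene, was also higher (0.54 ± 0.19, edgeR adjusted p = 0.0353), but its groups overlapped. The call of Ret was lost with DESeq2, with limma-voom and in 4 of the 6 fits that left out 1 library.

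Among aldehyde dehydrogenases outside the retinoic acid-making enzymes, 13 of 17 were tested, with 6 called higher, 2 lower and 5 without a call (46.2% and 15.4%, against 18.5% and 19.7% of all tested genes), and a median log2 fold change of 0.20. Among the called genes, the largest differences were those of Aldh1l1, a folate enzyme of the cytoplasm (1.11 ± 0.32, edgeR adjusted p = 0.0107), and of its mitochondrial relative Aldh1l2 (0.56 ± 0.08, edgeR adjusted p = 3.19e-05). Aldh1l1 had 54, 25 and 32 counts against 21, 12 and 16, and its call was lost without shGAA 1. Aldh6a1, which acts in valine breakdown, and Aldh18a1, which acts in proline synthesis, were higher by 0.49 ± 0.10 and 0.42 ± 0.06 (edgeR adjusted p = 0.000611 and 2.17e-05). The log2 fold change of Aldh1a3, 2.17, was above each of these, which is stated as a description because Aldh1a3 was chosen from the same contrast.

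**Figure D4:**
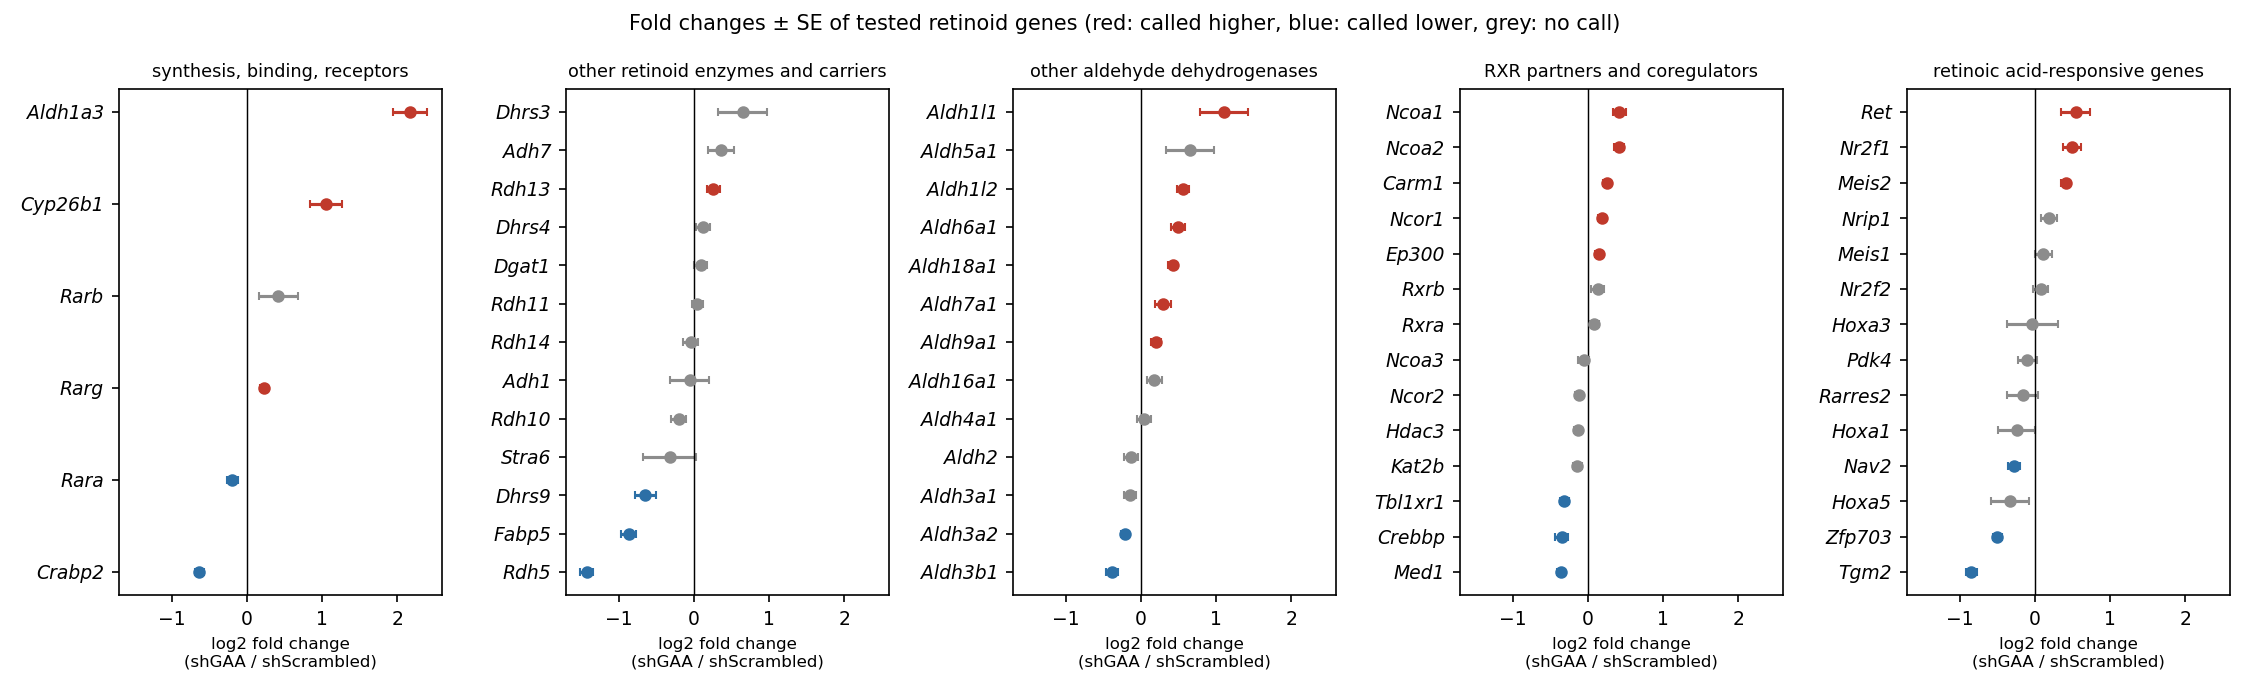
Log2 fold changes (shGAA over shScrambled, horizontal axis) with SE for the tested members and the tested genes of the 4 lists, except 1 that is not reported here; red is called higher, blue lower and grey no call. Among the members Aldh1a3 lies at 2.17 and Crabp2 at -0.63, and in the lists the calls fall on both sides of 0.

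Genes whose levels followed those of the 3 members with the largest fold changes were ranked by the Euclidean distance of centred log2(CPM + 0.5) over the 6 libraries. The nearest to Aldh1a3 were Ogdhl, which encodes a relative of a mitochondrial dehydrogenase subunit (distance 0.320, r = 0.991), Perp (0.465, r = 0.982) and Pard6g (0.528, r = 0.989). Ogdhl had 43, 42 and 38 counts in shGAA and 6, 6 and 8 in shScrambled. The nearest to Cyp26b1 were Gm11992 (0.371, r = 0.964), Enox1 (0.404, r = 0.964) and Pdcd4 (0.420, r = 0.952). The nearest to Crabp2 were Reep5, a gene for a protein that shapes the endoplasmic reticulum (0.0429, r = 0.999), Ddr1, a collagen receptor (0.0776, r = 0.995) and Txn1, thioredoxin (0.0799, r = 0.997). The libraries share the group difference, so that a fold change of similar size is part of each distance, and r is given without a test.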

How the data were processed

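The file deposited by the authors holds raw, whole-number counts of reads for each gene symbol in the 6 libraries. Per the submitters' processing notes, FastQC, HISAT2 2.1.0, Subread and edgeR were used with the build mm10; the annotation, strand setting and rule for reads with several matches were not given in the sources used here. Of 24421 symbols, 8068 had no count in any library. Genes kept by filterByExpr (11801) were scaled by TMM and tested with edgeR 4.0.16 (R 4.3.3; robust quasi-likelihood F-test, group only, Benjamini-Hochberg over all tested genes). DESeq2 1.42.0 and limma 3.58.1 (voom) were alternatives, beside other scalings, no filter, a non-robust fit, a replicate block and leaving out each library. SE is the coefficient divided by the square root of F. Gene positions and lengths came from GENCODE M21 (GRCm38), which may differ from the authors' annotation. The code was tested on simulated counts, in which the share of calls that fell on unchanged genes was above the nominal level, so that calls close to the threshold are the least certain.

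The members and the 4 lists were chosen with earlier results of these data known. Named genes were Gaa, the members, 10 genes taken whatever their values, up to 4 called genes per list with the largest fold change and a mean of at least 1 CPM, and the 3 nearest genes to the 3 members of largest fold change; others named were chosen after their values were seen. Some genes of the lists are not reported here by name.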

Additional observations from a re-analysis of the deposited data

How the results depend on the processing

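Over the alternatives, 3 members stayed called higher when any library was left out, and Aldh1a3, Cyp26b1, Rarg and Crabp2 kept their call in all 13 fits. The number called lower was 1 in place of 2 with library-size scaling, no filter, DESeq2, the replicate block and every left-out library (1 to 1), Rara being lost. Rarb was called with no filter and with the replicate block, but in no fit that left out a library. In the enzymes and carriers list, the higher calls numbered 3 with no filter, 0 with DESeq2, 2 with limma-voom, 2 with the non-robust fit, 3 with the replicate block and 0 to 2 with a library left out; the genes added were Dhrs3 and Adh7. Left-out libraries gave 3 to 5 higher and 2 to 4 lower among the other aldehyde dehydrogenases (3 without shGAA 1, 4 without shScrambled 1) and 3 to 5 higher among RXR partners and coregulators (3 without shGAA 3). The cause was not tested. Over all genes, library-size scaling gave 2809 higher and 1872 lower against 2182 and 2330, so that higher calls outnumbered lower ones only under that scaling, with a median log2 fold change of 0.05. Samples with the same number did not vary together (correlations of -0.0386, 0.0590 and -0.0165), so that the paired fit with a replicate block (2037 higher, 2197 lower) is only a check. Among the 6 tested members, no fold change changed sign in the 13 alternatives. For genes with few counts, such as Aldh1a1 and Crabp1, depth limits what can be seen.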

Other observations

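shScrambled 1 was compared with the other controls over all genes, after the values of Rarb and Dhrs3 were seen. Of 10335 genes with a mean of at least 5 CPM, 11 (0.106%) stood in shScrambled 1 at or below 50% of the mean of shScrambled 2 and 3, and Rarb and Dhrs3 were among them. Over these genes the median was 100%, with 80.1% and 125% at the 5th and 95th percentiles. Adh7, an alcohol dehydrogenase that can oxidise retinol, stood at 62.7%, and Adh1 of the same list, at a mean of only 3.04 CPM, at 56.5%. Adh7 had 111, 149 and 191 counts in shScrambled 1, 2 and 3, so that shScrambled 2 and 3 differed as well. The tested genes of its list, the other retinoid enzymes and carriers, lay on both sides of 100%, between 41.9% (Dhrs3) and 131% (Rdh10). By the distance used for like patterns, Dhrs3 ranked 11 of 11800 genes for nearness to Rarb (r = 0.974 over 6 libraries, given as a description). Both genes were set side by side for their low values in shScrambled 1. Those values enter the distance, so that nothing is read from the rank. The nearest genes to Rarb were Psd (r = 0.985), Phactr1 (r = 0.984) and Zfp493 (r = 0.969). The 14 tested genes of the list of retinoic acid-responsive genes, which holds neither Rarb nor Dhrs3, stood between 84.9% (Pdk4) and 142% (Hoxa3). This range was not limited to genes of at least 5 CPM, and Hoxa3 had only 17, 9 and 14 counts in shScrambled. Cyp26a1 had 0, 1 and 3 counts in shScrambled 1, 2 and 3, too few for such a percentage. The source of the low values in this library was not tested.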
